A study of Mus musculus with 5 samples.

Results

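Cytosolic ribosomal protein genes encode the proteins that, with ribosomal RNA, form the large and the small subunit of the ribosome. Their products are needed in nearly equal amounts, and their mRNAs are among the most abundant of a dividing cell. Many of these mRNAs start with a C followed by a run of pyrimidines, the 5′ terminal oligopyrimidine (TOP) motif, through which their translation is controlled by growth signals. Several of the genes have a paralog, and some paralogs, among them Rpl10l and Rpl39l, are known for their expression in male germ cells.

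The genes were taken by symbol from the protein-coding genes of GENCODE M21. Rpl, Rplp0 to Rplp2, Rps and Rpsa symbols were kept, and the kinases of the Rps6k family and genes with a -ps symbol were left out. This gave 86 genes of 21952 protein-coding symbols and of 55147 symbols in all, 52 for the large and 34 for the small subunit. The symbols include 8 paralogs (Rpl3l, Rpl7l1, Rpl10l, Rpl22l1, Rpl36al, Rpl39l, Rps27l and Rps27rt) and Rps19bp1, which encodes a protein that binds a ribosomal protein and is not one itself.

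Total RNA of E14Tg2a mouse embryonic stem cells was sequenced from 3 samples of the wild type parent cells (WT) and 2 samples of C3G null cells (C3G KO). In the null cells a puromycin cassette replaced early exons of the C3G gene, Rapgef1, which encodes a guanine nucleotide exchange factor. The study calls the samples of each group independent. The clone behind each null sample, and what separates the samples of a group, are not given in the sources used here, so p-values measure only the spread between these samples. Values are TPM (a transcript's reads set against its length and against the total of the sample), and the read depth behind them is unknown.

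Rapgef1 had 11.6, 10.3 and 9.64 TPM in WT and 3.92 and 5.55 TPM in C3G null cells, so that the null samples lay below all WT samples, as they did for 75.7% of all tested genes as deposited. The markers of ES cells summed to 2223, 2345 and 2295 TPM in WT and 1771 and 2311 TPM in C3G null cells, and all 8 were above 1 TPM, with Dppa5a the most abundant. The 4 testis germ cell markers summed to 22.8, 24.1 and 21.2 TPM in WT and to 7.89 and 10.3 TPM in C3G null cells. Most of this was Sycp3, and Prm1 and Tnp1, which mark late male germ cells, were under 1 TPM in all samples. Sums were also lower in both null samples for the 5 fibroblast markers (5.69, 5.35 and 3.88 against 0.99 and 1.39 TPM), the 3 trophectoderm markers (5.67, 4.90 and 4.72 against 0.54 and 0.48 TPM) and the 3 mesoderm markers (8.87, 6.57 and 6.45 against 1.65 and 3.42 TPM). The most abundant genes of these lists were Thy1, Krt7 and T. In the same order, 3, 1 and 1 of the markers were under 1 TPM in all samples. The 4 primitive endoderm markers summed to between 1.47 and 2.75 TPM, with overlapping groups, and all 4 were under 1 TPM in all samples. The part of other cell types in the results was not tested. In bulk samples fewer cells of a type and less RNA per cell cannot be told apart.

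Small non-coding RNAs took up 56.4%, 57.5% and 62.4% of the TPM in WT and 73.9% and 62.6% in C3G null cells. Because TPM sum to the same total in each sample, a larger share on these RNAs goes with lower TPM of other genes. Protein-coding genes held 31.9%, 31.4% and 28.8% of the TPM in WT and 18.6% and 26.0% in C3G null cells. Fold changes are therefore given after median-of-ratios scaling, in which each sample is divided by the median ratio of its genes to their geometric mean over samples, and beside it for TPM as deposited. The scaling factors were 1.33, 1.22 and 1.10 in WT and 0.618 and 0.905 in C3G null cells. Over all genes tested, the median log2 fold change came to 0.0052 after scaling and -0.55 as deposited. By construction, the median after scaling lies near 0. Of the genes called, 45.8% were higher in C3G null cells after scaling and 2.48% as deposited.

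Some of the marker readings depend on this choice. Scaled values of Rapgef1 were 8.67, 8.46 and 8.75 in WT and 6.35 and 6.14 in C3G null cells, so the null samples were still lower, by a log2 fold change of -0.41 (limma adjusted p = 0.00444) against -1.015 as deposited (limma adjusted p = 0.000305). The study detected transcripts of C-terminal exons in its knockout clones, and saw neither full-length nor truncated C3G protein. The scaled sums of the ES cell markers were 1668, 1925 and 2083 in WT and 2867 and 2555 in C3G null cells, above WT where TPM overlapped. All 8 had log2 fold changes above 0 after scaling, with a median of 0.19. Of the 8, 1 was called higher and 0 lower in limma, against 14.1% and 16.6% of all tested genes. At an unadjusted p under 0.05 in limma these counts were 3 and 0, against 21.6% and 22.3%. As deposited the median was -0.51, with 1 of the 8 above 0 and 0 higher and 0 lower, against 1.45% and 56.8%. At an unadjusted p under 0.05 limma then gave 0 higher and 3 lower, against 1.63% and 64.3%. Scaled sums of the primitive endoderm markers were also above WT, at 2.75 and 3.04 against 1.43, 1.54 and 1.33. These 4 genes were each under 1 TPM in all samples and 0 of them were tested, so this sum lies near the floor. Scaled sums of the fibroblast, trophectoderm, mesoderm and testis germ cell markers stayed below WT in both null samples.

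Together the ribosomal protein genes held 7.16%, 7.63% and 7.31% of all TPM in WT and 5.46% and 6.76% in C3G null cells. As a share of protein-coding TPM the order was the opposite, with 22.5%, 24.3% and 25.4% in WT and 29.3% and 26.0% in C3G null cells. The groups did not overlap in either measure, and in both the first null sample lay farther from WT than the second. An exact two-sided permutation test gave p = 0.1 for each, the smallest value that 3 against 2 samples allow.

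**Figure D1:**
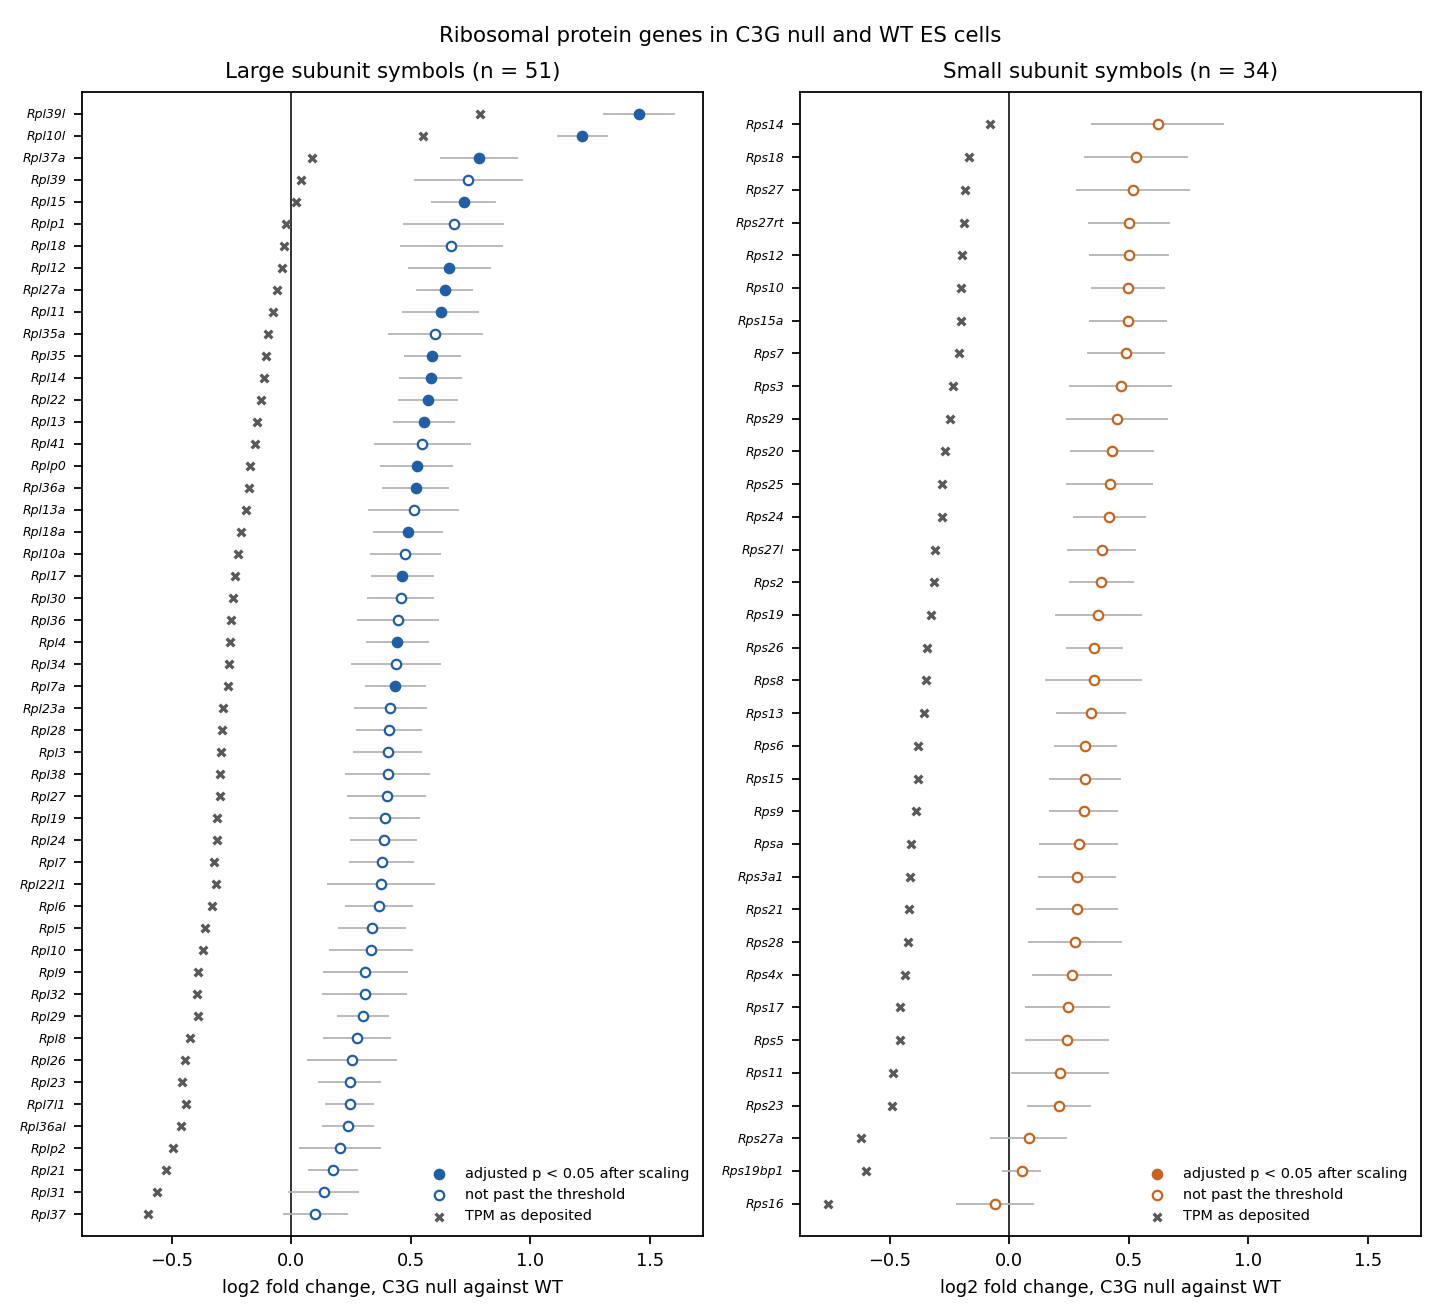
Log2 fold change of each tested ribosomal protein gene in C3G null cells (n = 2) against WT (n = 3), with 51 large subunit symbols on the left and 34 small subunit symbols on the right. Circles show values after median-of-ratios scaling with their standard error, filled where the limma adjusted p was under 0.05, and crosses show TPM as deposited; 17 large subunit and 0 small subunit genes are filled, and most crosses lie below 0.

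After scaling, 17 of the 85 tested ribosomal protein genes were higher in the null samples (limma, adjusted p under 0.05), 0 were lower and 68 did not pass. Among all 12518 tested genes, 14.1% were higher and 16.6% lower. At an unadjusted p under 0.05, limma gave 45 higher and 0 lower, against 21.6% and 22.3% of all tested genes. The median log2 fold change was 0.40, and 84 of the 85 were above 0, with Rps16 at -0.06. Scaled values of both null samples lay above all WT samples for 63 of the 85 genes and below for 0, against 29.5% and 29.3% of all tested genes. The gene not tested was Rpl3l, a muscle paralog of Rpl3, which had between 0.09 and 0.25 TPM.

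TPM as deposited gave another picture. In that fit limma found no difference in spread between genes beyond the trend, so that each gene's own spread did not enter its p. Limma then called 1 gene higher, Rpl39l, and 4 lower, against 1.45% and 56.8% of all tested genes. Both null samples lay above all WT samples for 2 of the 85 and below for 54, against 1.49% and 75.7%. The 4 genes called lower were Rps16, Rps19bp1, Rps27a and Rpl37, with log2 fold changes of -0.76, -0.60, -0.62 and -0.60; apart from Rps27a they are named because the count is small, after their values were seen. The median of the ribosomal protein genes was -0.30, which is 0.25 above that of all tested genes, and after scaling it was 0.40 above. Under quantile normalization, which forces the same distribution on each sample, the difference turned to -0.10. The direction for these genes as a group thus differed between scalings.

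All 17 genes called after scaling belong to the large subunit, which had 17 of 51 tested genes higher, while the small subunit had 0 of 34. At an unadjusted p under 0.05 in limma these counts were 34 and 11. Small subunit genes were called higher in 3 other settings, 8 of them in limma without the mean-variance trend (23.5%, against 14.1% of all tested genes), 7 with protein-coding transcripts only (20.6%, against 19.9%) and 2 without the second null sample (5.88%, against 7.95%). They were called lower in others, 3 with TPM as deposited (8.82%, against 56.8% of all tested genes), 3 with quantile normalization (8.82%, against 14.6%) and 26 with TPM as deposited without the second null sample (76.5%, against 81.7%). The medians were 0.44 for the large and 0.35 for the small subunit, and the difference between call counts was not tested. Without the first, the second and the third WT sample, 8, 4 and 11 of the 85 genes were higher (9.41%, 4.71% and 12.9%), against 9.65%, 7.12% and 12.3% of all tested genes. Without the first null sample 2 were higher (2.35%, against 7.70%), and without the second 13 (15.3%, against 7.95%). The share called among these genes was thus above that of all tested genes with all samples, without the third WT sample and without the second null sample, and below it in the other 3 cases.

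The sum of large subunit TPM divided by that of the small subunit does not depend on scaling. This ratio was 1.202, 1.187 and 1.183 in WT and 1.238 and 1.279 in C3G null cells. Both null samples lay above all WT samples, and the group means were 1.19 ± 0.0100 (SD, n = 3) and 1.26 ± 0.0286 (SD, n = 2), with p = 0.1 in the exact permutation test, its smallest value. Without the paralogs and Rps19bp1 WT samples had a mean ratio of 1.189 ± 0.00995 (SD, n = 3), and null samples one of 1.258 ± 0.0276 (SD, n = 2).

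Rpl39l, on chromosome 16, encodes a paralog of RPL39, a small protein of the peptide exit tunnel. It had 12.3, 14.7 and 13.7 TPM in WT and 22.3 and 26.1 TPM in C3G null cells. It was the gene that was called higher with either scaling, with a log2 fold change of 1.45 ± 0.15 (SE; limma adjusted p = 0.00145) after scaling and 0.79 (limma adjusted p = 0.00841) as deposited. As deposited, Rpl39l lost this call without the first, without the second and without the third WT sample. Its X-linked partner Rpl39 had 443, 508 and 488 TPM in WT and 512 and 476 TPM in C3G null cells, and did not pass after scaling (log2 fold change 0.74, limma adjusted p = 0.0537). The level of Rpl39l was 2.78%, 2.89% and 2.80% of that of Rpl39 in WT and 4.36% and 5.48% in C3G null cells. WT samples were close to each other in this ratio and both null samples were above them, with an exact permutation p = 0.1.

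Rpl10l, a gene with 1 exon on chromosome 12, had 15.4, 16.1 and 16.0 TPM in WT and 20.6 and 27.1 TPM in C3G null cells. Its product is a paralog of RPL10, which joins the large subunit late in its assembly. Rpl10l rose by 1.22 ± 0.11 on the log2 scale after scaling (SE; limma adjusted p = 0.00088), and as deposited it had 0.55 (limma adjusted p = 0.0592). Rpl10, on the X chromosome, had a log2 fold change of 0.33 after scaling and -0.37 as deposited, neither past the threshold. Relative to Rpl10, the level of Rpl10l was 1.61%, 1.62% and 1.55% in WT and 2.91% and 3.24% in C3G null cells, again without overlap. In all samples the paralog was a small part of the pair.

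**Figure D2:**
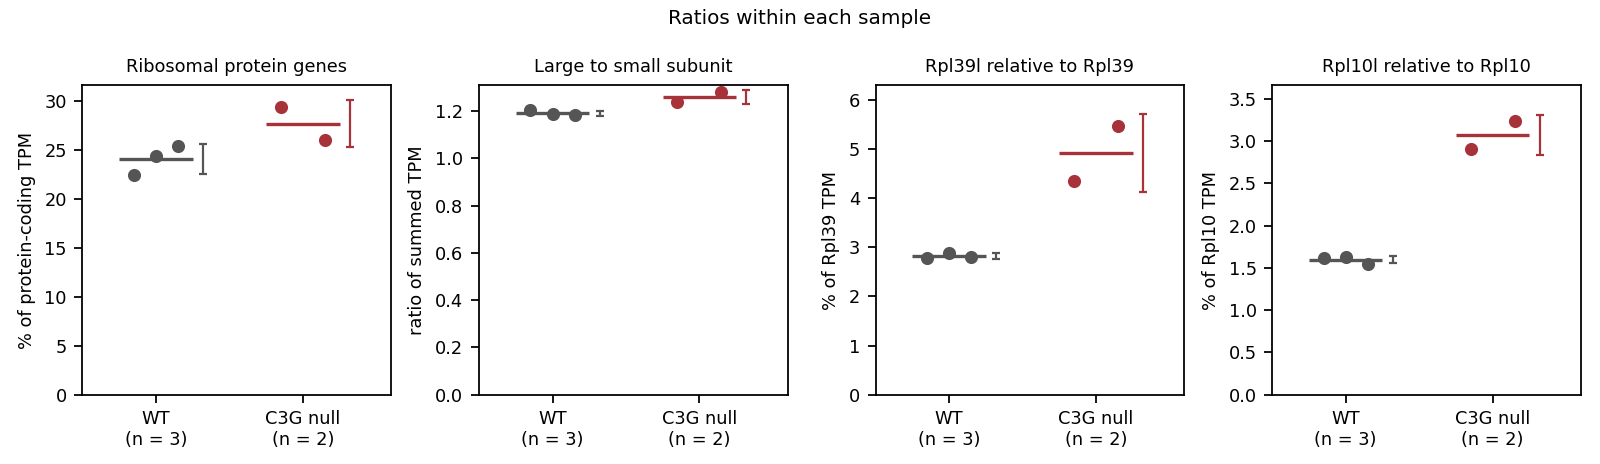
Measures that do not depend on the scaling of a sample, with 1 point per sample, the group mean as a line and the SD as an error bar (WT n = 3, C3G null n = 2). From left to right the axes give ribosomal protein TPM in % of protein-coding TPM, the ratio of large to small subunit sums, and Rpl39l and Rpl10l in % of the TPM of Rpl39 and Rpl10; the null samples are above all WT samples in each panel. Ribosomal protein TPM in % of all TPM, not plotted, does not depend on scaling either and was below all WT samples in both null samples.

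Rpl3l was also above WT relative to Rpl3 in both null samples, with 0.0190%, 0.0210% and 0.0128% in WT and 0.0276% and 0.0390% in C3G null cells, at levels too low to be tested. Rpl36al had 40.1%, 38.5% and 37.5% of the level of Rpl36a in WT and 28.9% and 35.0% in C3G null cells, and Rpl7l1 had 6.75%, 6.78% and 7.03% of that of Rpl7 in WT and 6.03% and 6.51% in C3G null cells. In both pairs the null samples lay below WT. The ratio of Rpl22l1 to Rpl22 ranged from 11.6% to 16.1% in WT and was 13.98% and 10.1% in C3G null cells, so that groups overlapped. Groups also overlapped for Rps27l, with 10.1% to 11.1% of the level of Rps27 in WT and 8.81% and 10.9% in C3G null cells, and for Rps27rt, with 3.20% to 3.29% of that level in WT and 3.11% and 3.34% in C3G null cells. Rps4l, a relative of Rps4x that is not annotated as protein-coding, had a log2 fold change of 0.29 after scaling and -0.40 as deposited, and Rps4x had 0.26 and -0.44. None of these values for Rps4l and Rps4x passed.

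Reads of near-identical genes can be split between them in counting, and the coding sequences of the pairs show how alike they are. In the transcripts with the highest TPM, Rpl39 and Rpl39l have coding sequences of 156 bases with 23 differences (85.26% identity), 16 of them at the last base of a codon. Rpl10 and Rpl10l differ at 98 of 645 bases, 89 of them at the last base of a codon. The coding sequence of Rps27rt is identical to that of Rps27 over 255 bases, so the TPM of this pair (62.7, 73.8 and 66.3 in WT and 57.1 and 61.2 in C3G null cells for Rps27rt) are uncertain. The sequences of the Rpl39 pair are shown since Rpl39l was called with either scaling, from GENCODE M21 on GRCm38, with bases that differ in capitals. Rpl39 lies on the minus strand at chrX:37082701-37085127 and Rpl39l on the plus strand at chr16:10174310-10174465, both from start to stop codon.
Rpl39: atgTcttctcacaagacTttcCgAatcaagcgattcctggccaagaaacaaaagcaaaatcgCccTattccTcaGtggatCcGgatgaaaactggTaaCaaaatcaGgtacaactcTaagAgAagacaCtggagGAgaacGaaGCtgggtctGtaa
Rpl39l: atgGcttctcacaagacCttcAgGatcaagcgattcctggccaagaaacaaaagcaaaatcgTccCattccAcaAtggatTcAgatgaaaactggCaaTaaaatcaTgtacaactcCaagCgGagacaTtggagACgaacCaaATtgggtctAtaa

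Among the genes with larger rises, Rpl37a had 612, 683 and 655 TPM in WT and 626 and 758 TPM in C3G null cells, with a log2 fold change of 0.78 ± 0.16 after scaling (SE; limma adjusted p = 0.0164) and 0.09 as deposited. Rpl15, near the start of chromosome 14, had 731, 793 and 724 TPM in WT and 640 and 903 TPM in C3G null cells, and rose by 0.72 ± 0.14 after scaling (SE; limma adjusted p = 0.0117). As deposited its null samples lay on either side of WT, with a log2 fold change of 0.02. Rpl12 rose by 0.66 after scaling (limma adjusted p = 0.0332), with -0.04 as deposited. Rps24, the other member on chromosome 14, had 0.42 after scaling and -0.28 as deposited, and did not pass.

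Rpl11 and Rpl5 form a particle with 5S ribosomal RNA that can bind the p53 regulator Mdm2. Rpl11 rose by 0.62 after scaling (limma adjusted p = 0.0315), with -0.07 as deposited, while Rpl5 had 0.34 and -0.36 and did not pass. Of the acidic stalk genes, whose products recruit translation factors, Rplp0 rose by 0.53 after scaling (limma adjusted p = 0.0452), with -0.17 as deposited. Rplp1 had 0.68 after scaling and Rplp2 had 0.20, neither past the threshold. Rpsa, which encodes a small subunit protein also known as a laminin receptor, had 0.29 after scaling and -0.41 as deposited. Rps27a, whose product is made as a fusion with ubiquitin, had 937, 1031 and 956 TPM in WT and 577 and 697 TPM in C3G null cells. After scaling it had a log2 fold change of 0.08, and it fell by 0.62 as deposited (limma adjusted p = 0.0385).

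The most abundant members, Rplp1, Rpl13a and Rpl41 of the large and Rps27, Rps12 and Rps18 of the small subunit, did not pass with either scaling. Rps12 had 2120, 2209 and 2068 TPM in WT and 1598 and 2161 TPM in C3G null cells. The median member had 801, 859 and 799 TPM in WT and 609 and 766 TPM in C3G null cells, and levels of the set ran from 0.09 TPM for Rpl3l to 2292 TPM for Rps27. Across the 85 tested members, the log2 fold change had a Spearman correlation of -0.07 with transcript length, -0.03 with GC content and 0.03 with mean TPM, as a description over genes that are not independent replicates and share their libraries. With the trend of each sample on length and GC content over all genes subtracted, 11 members (12.9%) were higher, against 16.7% of all tested genes, and their median was 0.18 above that of all tested genes in place of 0.40.

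Fau and Rack1 encode proteins of the small subunit and lie outside the symbol rule. After scaling their log2 fold changes were 0.38 (limma adjusted p = 0.0507) and 0.22 (limma adjusted p = 0.364), and neither passed. As deposited they were -0.31 and -0.48.

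The rest of the translation machinery is given after scaling, with counts to be read against 14.1% and 16.6%. A list of elongation factors with the release factors Etf1 and Gspt1, Eef1e1 and the kinase Eef2k had 9 tested genes, of which 3 rose and 0 fell. At an unadjusted p under 0.05 in limma, 5 were higher and 0 lower, against 21.6% and 22.3% of all tested genes. The 3 that rose were Eef2, which moves the ribosome along the mRNA, its kinase Eef2k (0.41 each) and Eef1e1, a part of the tRNA synthetase complex (0.39). Eef1e1 is named after its value was seen. A list of initiation factors with Eif4ebp1 and Pabpc1 had 39 tested genes, of which 6 rose and 2 fell. Eif3h had 0.54 and Eif1b 0.44, and Eif5b and Eif4g3 had -0.60 each. Of 86 ribosome assembly factors, 9 rose and 3 fell. Nhp2 and Nop10, which belong to the box H/ACA particle that guides pseudouridine formation, had 0.47 and 0.46. Dkc1 and Gar1 of the same particle, named after their values were seen, had -0.0037 and 0.30 and did not pass. Tcof1 and Pelp1 had -0.38 and -0.31. RNA polymerases I and III, which make ribosomal RNA and other small RNAs, had 5 of 36 higher, such as Polr3gl (0.52) and Taf1d (0.42), and 5 lower, such as Polr3d (-1.18) and Gtf3c1 (-0.55). Of 11 chaperones and TOP mRNA binding proteins, 4 rose and 1 fell, with Nap1l1 at 0.57, Bccip at 0.48 and Larp1b at -0.28. As deposited, 0 genes of these lists were called higher, with 0 at an unadjusted p under 0.05 in limma (1.63% of all tested genes), and the lower calls were 1 of 9, 18 of 39, 55 of 86, 23 of 36 and 6 of 11 in the same order, against 1.45% higher and 56.8% lower of all tested genes. The genes of this paragraph named as higher had log2 fold changes below 0 as deposited, apart from Polr3gl with 0.06.

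Small nucleolar RNAs (snoRNAs) guide the modification of ribosomal RNA, and many are cut from introns of ribosomal protein genes. The annotation placed 58 snoRNA genes inside 30 of the members. Of these, 36 were listed at 0 in all samples, and none of the 36 is longer than 104 bases. Whether the counting had a lower limit on length is not given in the sources used here, so a listed 0 does not show that the RNA was absent. The other 22 are 125 to 203 bases long, and 12 of them were higher and 0 lower in C3G null cells after scaling, against 14.1% and 16.6% of all tested genes, with 16 and 0 at an unadjusted p under 0.05 in limma, against 21.6% and 22.3%. As deposited 14 were higher and 0 lower, against 1.45% and 56.8%, with 15 and 0 at an unadjusted p under 0.05 in limma, against 1.63% and 64.3%. Groups overlapped in 6 of the 14, whose own spread did not enter the test. The median log2 fold change of the 22 was 1.48 after scaling and 0.78 as deposited. Gm26387 inside Rpl5, called with either scaling, had 0 TPM in all WT samples and 20.2 and 27.2 TPM in C3G null cells. It thus entered the test through the null samples alone, and its log2 fold change after scaling was 5.02. Among host genes that encode no protein, 7 of 12 rose and 0 fell after scaling, against 14.1% and 16.6%, with 9 and 0 at an unadjusted p under 0.05 in limma, against 21.6% and 22.3%. As deposited the list had 1 higher and 0 lower (limma, 1 and 1 at an unadjusted p under 0.05), against 1.45% and 56.8%, and a median of -0.28. Snhg9 had 0.76, 0.75 and 2.63 TPM in WT and 4.80 and 5.43 TPM in C3G null cells, and rose by 1.94 after scaling (limma adjusted p = 0.00948). The 0.76 and 0.75 TPM lie under the filter of 1 TPM in at least 2 samples. WT samples alone would thus not have brought Snhg9, which is among the 7 that rose, into the test. Snhg14 had 0.62 after scaling (limma adjusted p = 0.0382) and -0.02 as deposited.

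Transcripts annotated as protein-coding carried 85.5%, 85.8% and 86.6% of the members' TPM in WT and 86.7% and 86.1% in C3G null cells. Retained-intron transcripts carried 7.29%, 7.03% and 6.69% in WT and 6.70% and 7.06% in C3G null cells. Groups overlapped in both, and also for transcripts marked for nonsense-mediated decay. Transcripts annotated as processed carried 3.15%, 3.06% and 2.76% in WT and 2.47% and 2.75% in C3G null cells, which lay below WT (exact permutation p = 0.2). Genes with a -ps symbol, which marks pseudogenes, numbered 300, and 6 of them are annotated as protein-coding. Of the 300, 60 were tested, and 13 were higher and 1 lower after scaling, against 14.1% and 16.6% of all tested genes. As deposited 0 were higher and 8 lower, against 1.45% and 56.8%, with 0 and 10 at an unadjusted p under 0.05 in limma, against 1.63% and 64.3%. Scaling gave 28 and 1 at that p, against 21.6% and 22.3%. Their TPM came to 4.26%, 4.08% and 4.01% of the members' TPM in WT and 3.69% and 4.25% in C3G null cells, again with overlap. Reads of a pseudogene and its parent may have been split in counting. Rpl35a-ps2, Rpl35a-ps3, Rpl35a-ps4 and Rpl35a-ps6 had identical TPM in all samples, so they are not independent entries among the 60 and the 28.

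The start of the gene was compared with the TOP motif in RefSeq promoters of GRCm38.p6, in which 66 of the 86 members have an entry. A C at the annotated start followed by at least 4 bases that are each C or T, read on the strand of the gene, was found in 14 of the 66 (21.2%) and in 3.01% of all 27025 symbols with an entry. By subunit these were 7 of 40 large and 7 of 26 small subunit genes. The median log2 fold change after scaling was 0.50 for the 14 and 0.39 for the 51 other tested members with an entry. A match describes the annotated start base, and its absence says only that the letters are not at that base. The 3 genes shown rose after scaling and hold the motif, which is in capitals, with 10 bases before and 20 from the start. The other genes with a match, in either subunit, did not pass after scaling. Rpl15 is at chr14:18270967-18270996 on the minus strand, Rpl35 at chr2:39005112-39005141 on the minus strand and Rpl14 at chr9:120571507-120571536 on the plus strand. Rpl35 and Rpl14 were chosen after their values were seen, with log2 fold changes of 0.59 and 0.58 after scaling and -0.11 and -0.12 as deposited.
Rpl15: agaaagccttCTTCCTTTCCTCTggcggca
Rpl35: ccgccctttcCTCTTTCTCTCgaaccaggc
Rpl14: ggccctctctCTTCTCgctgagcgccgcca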

How the data were processed

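The authors deposited TPM for 142647 Ensembl transcripts in 3 WT and 2 C3G null samples, rounded to 2 decimals. The submitters' processing notes name bcl2fastq 2.20, FastQC 0.11.7, STAR 2.5.1b and RSEM 1.2.31, and the builds mm10 and GRCm38. TPM keep no read depth. Of the transcripts, 141524 were matched to GENCODE M21 and summed by symbol. Genes with at least 1 TPM in at least 2 samples were tested in limma 3.58.1 (R 4.3.3) on log2(TPM + 1), with the trend of variance on the mean, after median-of-ratios scaling and as deposited, two-sided, with Benjamini-Hochberg adjustment and a threshold of 0.05. For genes of low TPM the added 1 makes fold changes too small. The procedure was tested on simulated data. Python 3.11.15 was used with matplotlib 3.10.9 and pandas 2.3.3.

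Members and lists were chosen with earlier results of these data known. Named genes are paralog pairs, the members called after scaling with the 5 largest rises and 5 largest falls, the 3 most abundant members per subunit, stalk and selected genes, members on chromosome 14, and the 2 largest rises and falls of each other list. An item that the rule takes is not reported here. Alternatives were other scalings, pseudocounts of 0.1 and 5, other filters, no trend, unadjusted p, a replicate block, a length and GC correction, protein-coding transcripts only, pseudogenes added to their parents, and each sample left out.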

Additional observations from a re-analysis of the deposited data

How the results depend on the processing

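The 17 ribosomal protein genes higher and 0 lower in C3G null cells after median-of-ratios scaling became 1 and 4 with TPM as deposited (against 1.45% and 56.8% of all tested genes) and 3 and 7 with quantile normalization (against 12.8% and 14.6%). The share of all tested genes called higher in the same fit follows each count. The higher count was 10 with scaling to protein-coding TPM (11.8%, against 5.65%), 10 with scaling to protein-coding TPM without ribosomal protein genes (11.8%, against 7.84%), 3 without a filter on low TPM (3.49%, against 3.67%), 37 in limma without the trend (43.5%, against 14.1%), 11 with the length and GC correction (12.9%, against 16.7%), 35 with protein-coding transcripts only (41.2%, against 19.9%) and 45 with unadjusted p (against 21.6%). Leaving out each sample in turn gave 2 to 13 higher and 0 lower. TPM as deposited with each sample left out, added after seeing the data, gave 0 to 2 higher and 0 to 60 lower, the 60 (70.6%) without the second null sample, where 81.7% of all tested genes were lower. Where a null sample is left out, the other is assumed to vary like the WT samples. The replicate numbers of the labels, as a replicate block, gave 5 higher (5.88%, against 11.9%), and 2 with the length and GC correction (2.35%, against 10.4%). Deviations of same-numbered samples correlated at -0.18 for number 1 and 0.18 for number 2. Because the 2 null samples deviate from their mean by opposite amounts, these values are not independent checks. The library name of the second null sample carries the number 3, and no block was run on that number. The third WT sample correlated at -0.33 with the second null sample and at 0.33 with the first. The labels hold nothing else that pairs the samples.

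The median log2 fold change of ribosomal protein genes relative to all tested genes (0.40) was -0.10 with quantile normalization, 0.18 with the length and GC correction, 0.23 with the replicate block and that correction, 0.28 to 0.51 with a sample left out, and 0.17 to 0.32 as deposited with a sample left out. Among the latter it was 0.17 without the first WT and 0.20 without the first null sample. The median of large minus small subunit genes (0.08) was 0.12 with quantile normalization, 0.0689 to 0.1328 with a sample left out and 0.07 to 0.13 as deposited with a sample left out. Of both values, only the first with quantile normalization turned in sign.

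The log2 fold changes of named genes turned in sign in 70 of 1034 gene and setting pairs, lost their call in 144, gained one in 31 and kept direction and call in 789. With TPM as deposited, 37 of 52 turned, which were Rpl22 -0.13, Rpl22l1 -0.32, Rps27 -0.18, Rps27l -0.31, Rpl3 -0.30, Rpl10 -0.37, Rpl36a -0.18, Rpl36al -0.46, Rpl7 -0.32, Rpl7l1 -0.44, Rps4x -0.44, Rps4l -0.40, Rpl12 -0.0376, Rpl13a -0.19, Rplp1 -0.0197, Rpl41 -0.15, Rps12 -0.20, Rps18 -0.17, Rplp0 -0.17, Rplp2 -0.49, Rpsa -0.41, Rpl5 -0.36, Rpl11 -0.0739, Rps27a -0.62, Rps24 -0.28, Fau -0.31, Rack1 -0.48, Eef2 -0.28, Eef2k -0.0197, Eif3h -0.15, Eif1b -0.18, Nhp2 -0.22, Nop10 -0.21, Taf1d -0.28, Snhg14 -0.0241, Nap1l1 -0.12 and Bccip -0.20. That scaling moves all tested genes to a median of -0.55. The same value minus that median, added after the sign changes above had been seen, turned in sign in 31 of the 1034 pairs, 1 of them as deposited. With quantile normalization 22 turned on either measure, namely Rps27 -0.45, Rps27l -0.0382, Rpl3 -0.0995, Rpl10 -0.12, Rpl36al -0.20, Rpl7 -0.0831, Rps4x -0.16, Rps4l -0.0489, Rpl13a -0.31, Rplp1 -0.19, Rpl41 -0.15, Rps12 -0.39, Rps18 -0.26, Rplp2 -0.21, Rpsa -0.42, Rpl5 -0.16, Rps27a -0.39, Rps24 -0.21, Fau -0.17, Rack1 -0.25, Eef2 -0.13 and Taf1d -0.0168. Scaling to protein-coding TPM gave Rplp2 -0.0181, Rps27a -0.14 and Rack1 -0.0073, and without ribosomal protein genes Rps27a -0.0713. The length and GC correction gave Rpl36al -0.0058, Rplp2 -0.0632 and Rps27a -0.10, and with the replicate block Rpl36al -0.0094 and Rps27a -0.0588. Without the first WT sample and without the first null sample, Rps27a had -0.0147 and -0.057, in a range of -0.057 to 0.2219 over the samples left out. The cause was not tested.

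Depth is unknown, and 3 against 2 samples cannot reach an exact p under 0.1. Paralogs, pseudogenes and snoRNAs share sequence or position with members, and how counting split their reads is not known. The share of small RNAs was above WT in both null samples, although the second null sample (62.6%) lay close to the third WT sample (62.4%). The part of this share in the values as deposited was not tested beyond the scalings given.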
